A study of Mus musculus with 15 samples.

Results

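Regulatory T cells (Treg) and conventional CD4 T cells (Tconv) from the spleens of control mice were compared gene by gene. A gene entered the comparison when its normalised read count, the read count divided by the size factor of its library, was at least 10 in at least 3 of the 7 control libraries. The rule kept 10913 of the 17594 genes in the table. It used levels only, with both cell types together and no fold change. Of these genes 10059 were at 10 or more in all 7 libraries, 235 reached 10 in Treg libraries only and 107 in Tconv libraries only. Genes of the last 2 kinds entered through the cell type in which they were higher. The third-highest value was 10.013 for Cdca3, Efcab7 and Lgals6, just inside the rule, and 9.942 for 4921507P07Rik, Ctrl and Cxcr1, just outside it.

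The control animals were C57BL/6 mice labelled wild-type (WT), with 4 Treg and 3 Tconv libraries. The knockout animals (KO), with 4 libraries of each cell type, carried a conditional Hpgd allele together with Foxp3-Cre-YFP, a recombinase made in cells that express Foxp3, on the same background. Hpgd encodes hydroxyprostaglandin dehydrogenase, which starts the breakdown of prostaglandin E2. The labels give no age or number of animals and do not say whether the controls carry the Cre allele, which markers the sort used, or which samples came from the same animal, so the p-values measure the spread between these samples.

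Treg are CD4 T cells that hold other immune cells in check, and people and mice that lack Foxp3 develop severe autoimmunity. Foxp3, a forkhead transcription factor, keeps their programme in place. Treg make little interleukin-2 themselves and take it up through a high-affinity receptor, they carry inhibitory receptors such as Ctla4, and they present latent TGF-beta on their surface, bound to the protein that Lrrc32 encodes. In spleen most Tconv are resting cells, alongside helper and memory cells.

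Reads assigned to genes numbered 6.43 to 11.1 M in the 7 control libraries, and 13303 to 13945 genes had a read. On log2 values of the genes of the rule, the first principal component carried 81.2% of the variance and separated all 4 Treg from all 3 Tconv libraries. The lowest Spearman correlation across genes within a cell type was 0.992 and the highest between cell types was 0.965. Hpgd had 1 read in the control Treg libraries and 0 in every other group, so the knockout cannot be checked on it at this depth. Xist, made from the inactive X chromosome, was at most 5.52 in control libraries and at least 8644 in KO libraries. Ddx3y, on the Y chromosome, was at least 1154 in control libraries and at 0 in all KO libraries. Sex and genotype therefore cannot be told apart where the KO libraries are used, and the sample numbers of the labels run from 483 to 490 in WT and from 574 to 581 in KO.

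The sequences just before the start of the Treg genes Foxp3 and Il2ra are shown because both are labels of the cell type, and Foxp3 has 2 annotated starts. Each is the 100 bases before a start, 5′ to 3′ on the strand of the gene, from RefSeq (GRCm38.p6). The Foxp3 windows lie at chrX:7579576-7579675 and chrX:7580383-7580482 and the Il2ra window at chr2:11642692-11642791, all on the plus strand.
Foxp3 window 1: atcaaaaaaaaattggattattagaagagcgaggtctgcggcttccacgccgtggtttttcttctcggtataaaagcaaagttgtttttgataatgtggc
Foxp3 window 2: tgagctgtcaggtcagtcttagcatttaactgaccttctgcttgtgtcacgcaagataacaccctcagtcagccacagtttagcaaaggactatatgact
Il2ra: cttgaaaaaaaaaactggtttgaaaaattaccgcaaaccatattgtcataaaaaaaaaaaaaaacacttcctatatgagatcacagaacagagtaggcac

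The 3 genes that mark Treg were checked first. Foxp3 (ENSMUSG00000039521.13, chromosome X, 7573644 to 7595245, GRCm38) had normalised read counts of 4766, 4435, 4800 and 4006 in the Treg WT libraries and 16.3, 20.6 and 14.4 in the Tconv WT libraries. Il2ra, the alpha chain of the interleukin-2 receptor (chromosome 2, 11642807 to 11693193), was at 4171, 4111, 4051 and 3837 in Treg and at 44.3, 64.8 and 58.4 in Tconv. Lrrc32 (chromosome 7, 98489283 to 98502181) was at 2308, 2284, 1987 and 2299 in Treg and at 0.904, 3.69 and 4.81 in Tconv. All 4 Treg libraries lay far above all 3 Tconv libraries for each gene, so the labels of the 7 libraries fit their markers. The Tconv mean was 0.379% of the Treg mean for Foxp3, 1.38% for Il2ra and 0.141% for Lrrc32. Of the genes of CD4 T cells in general, Cd3e, a chain of the T cell receptor complex, averaged 2335 ± 99.4 (SD, n = 4) in Treg and 2185 ± 55.8 (n = 3) in Tconv, a log2 difference of 0.10 ± 0.10 (SE) that did not pass. Cd4 itself was lower in Treg, at 4801 ± 83.3 against 7908 ± 278 (log2 difference -0.72 ± 0.10, limma with Benjamini-Hochberg adjustment, adjusted p = 6.6e-05).

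Between control Treg and control Tconv, 1992 of the 10913 genes passed an adjusted p of 0.05 (limma on log2(value + 1), Benjamini-Hochberg adjustment over 11314 fitted genes), which is 18.3% of the genes tested. Of these 1100 (10.1%) were higher in Treg and 892 (8.17%) were lower. Among the 1992 were 159 of the 235 genes that reached 10 in Treg libraries only and 84 of the 107 in Tconv libraries only. A difference over 2-fold was found for 549 genes higher in Treg (5.03%) and for 246 lower (2.25%), and one over 16-fold for 42 and 21. The median log2 difference over all genes of the rule was -0.02, with a median SE of 0.14. The 4 Treg and 3 Tconv values did not overlap for 4503 of the 10913 genes (41.3%), 1983 of which passed and 2520 did not. In bulk samples such as these, a lower level from fewer cells expressing a gene cannot be told apart from less RNA per cell. The fit drew its estimate of spread from all 15 libraries, and the KO libraries varied more between replicates (the median SD of log2 values was 0.23 for KO Treg, 0.18 for KO Tconv, 0.11 for WT Treg and 0.10 for WT Tconv). With the 7 control libraries alone 3900 genes passed, 1997 higher and 1903 lower, with all 1992 among them.

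**Figure D1:**
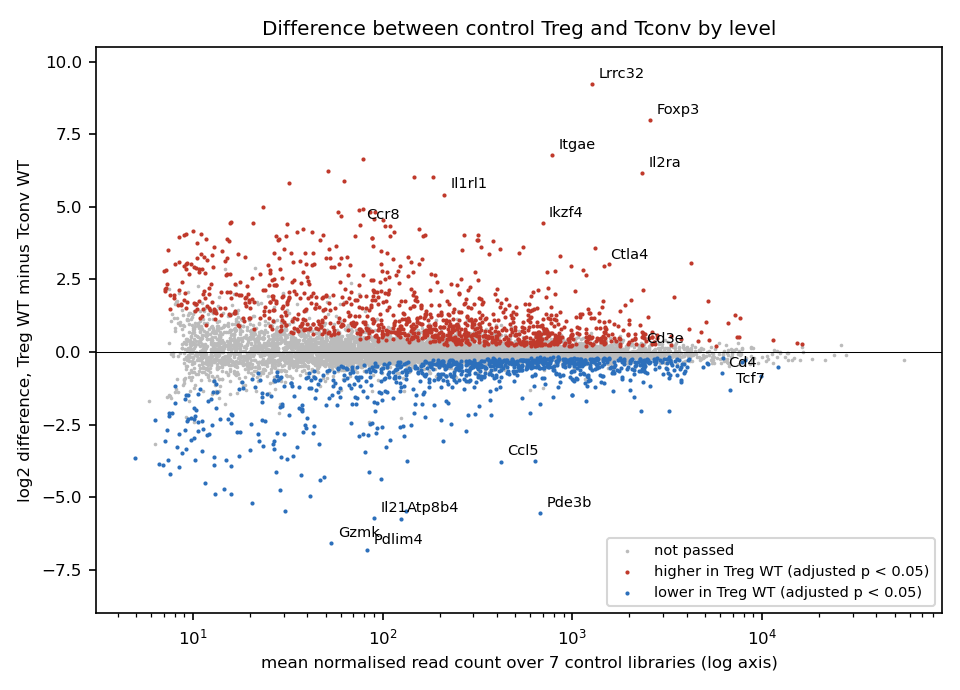
Each point is 1 of the 10913 genes, with its mean normalised read count over the 7 control libraries on a log axis and its log2 difference, Treg WT minus Tconv WT. Red points are the 1100 genes higher in Treg and blue points the 892 lower; Foxp3, Il2ra and Lrrc32 lie at the top, and Pde3b stands out among the lower genes for its level.

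The 15 rises described here are the largest among genes that passed, did not overlap, had a mean of at least 50 over the 7 control libraries and were not predicted genes, pseudogenes or receptor gene segments. These limits left out 3 genes with a rise at least as large, 2 of them predicted genes. The other one was Peli2, with 324 reads in Treg and 0 in Tconv, at least 83.7-fold higher in Treg (bound of 3 reads over the group). After Lrrc32 (log2 difference 9.21 ± 0.69) and Foxp3 (7.97 ± 0.30) came Itgae, which encodes the integrin chain CD103 that binds E-cadherin. Itgae was at 1421, 1415, 1303 and 1318 in Treg and at 11.8, 16.9 and 7.56 in Tconv, a log2 difference of 6.77 ± 0.38 (adjusted p = 1.4e-08). Below Fsd1l and Ryr2, Il2ra was the sixth at 6.17 ± 0.14 (adjusted p = 1.6e-13). Il1rl1, the receptor of interleukin-33, was at 335, 415, 366 and 340 in Treg and at 5.42, 13.7 and 5.50 in Tconv (5.42 ± 0.44, adjusted p = 5e-07). Klrg1, an inhibitory lectin receptor of differentiated T cells, was at 103, 177, 123 and 184 in Treg and at 2.71, 5.80 and 4.12 in Tconv (4.83 ± 0.37, adjusted p = 2.6e-07). For these receptors the lowest Treg library was many times the highest Tconv library. Of the 15 rises, Lrrc32, Fsd1l, Ryr2, Dnah7a, Dscam, Sdc4, Slc7a10, Zc3h12c, Klrg1, Gbp2b and Bicd1 were under 10 in every Tconv library. They met the rule only through the Treg libraries, where they were high.

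Ryr2, the fifth, encodes the calcium release channel of heart muscle. It was at 98.7, 103, 60.5 and 98.4 in Treg and at 0, 0 and 0.687 in Tconv, where it had 1 read in all, a ratio of 394 with a 95% counting interval of 70.4 to 15603. Fsd1l, the fourth, had 803 reads in Treg and 3 in Tconv, a ratio of 207 (95% counting interval 70.7 to 1008). These intervals cover counting error only. Dnah7a, a dynein heavy chain of cilia, was at 315, 398, 273 and 292 in Treg and at 2.71, 5.80 and 3.44 in Tconv (log2 difference 6.04 ± 0.44, adjusted p = 1.6e-07). Its sequence belongs to a family with close copies, so reads shared with a copy cannot be told apart. Dscam, a neuronal cell adhesion molecule, averaged 108 ± 26.2 in Treg and 0.985 ± 0.859 in Tconv (5.87 ± 0.76). The proteoglycan Sdc4 rose by 4.94 ± 0.32, the amino acid transporter Slc7a10 by 4.89 ± 0.61, the RNA-binding Zc3h12c by 4.83 ± 0.36, the guanylate-binding protein Gbp2b by 4.82 ± 0.46 and the dynein adaptor Bicd1 by 4.69 ± 0.52.

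The 15 falls described here were chosen with the same limits, which left out 41 genes with a fall at least as large, 40 of them for a mean under 50. Pdlim4, Gzmk, Atp8b4 and Il21 were under 10 in every Treg library and met the rule only through the Tconv libraries. Of the 15, Pde3b and Dapl1 were on the list of naive and resting T cell genes, and Gzmk and Eomes on that of CD8 T and natural killer cells. Pde3b, a phosphodiesterase that breaks down cyclic AMP (chromosome 7, 114415281 to 114539251), had the highest level in Tconv among them. It was at 28.8, 30.3, 41.3 and 28.4 in Treg and at 1474, 1639 and 1491 in Tconv, and its log2 difference was -5.55 ± 0.29 (adjusted p = 6.4e-09). The Tconv mean was 47.7 times the Treg mean, and no Treg library came near the Tconv range. Pdlim4, an actin-associated LIM protein, was at 0.685, 0.690, 0 and 1.77 in Treg and at 246, 154 and 178 in Tconv (-6.83 ± 0.42, adjusted p = 2.8e-08). Il21, a cytokine of helper cells, was at 1.37, 2.76, 4.65 and 3.55 in Treg and at 197, 201 and 221 in Tconv (-5.73 ± 0.73, adjusted p = 4.6e-05). Atp8b4, a lipid flippase, fell by 5.74 ± 0.36 on the log2 scale, the glutamyl transferase Ggt5 by 5.48 ± 0.42, and the transcriptional regulator Nacc2 by 4.13 ± 0.36. The amyloid precursor gene App differed by -4.38 ± 0.26. Vipr1, a receptor of vasoactive intestinal peptide, averaged 104 ± 36.2 in Treg and 1344 ± 139 in Tconv (-3.74 ± 0.30). Dapl1 (-3.74 ± 0.50), Myo10 (-3.29 ± 0.36) and Hs3st3b1 (-3.05 ± 0.26) completed this group. These 15 falls, like the 15 rises, passed under each of the 28 alternative settings tried.

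**Figure D2:**
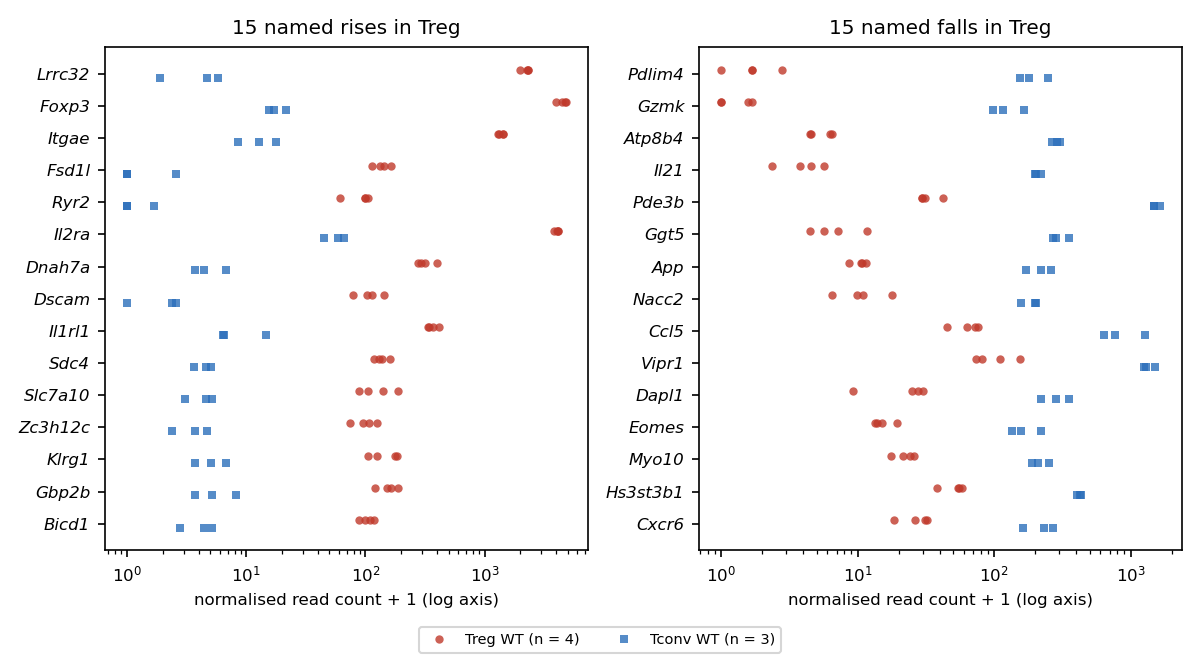
Normalised read count + 1 on a log axis for the 15 rises and 15 falls described beside it, each library a point (circles, 4 Treg WT; squares, 3 Tconv WT). Genes were plotted only where circles and squares do not overlap, and Foxp3, Il2ra and Lrrc32 combine high Treg levels with low Tconv levels.

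Cytotoxic and natural killer genes were among the falls. Gzmk, a granzyme, was at 0, 0.690, 0.582 and 0 in Treg and at 164, 115 and 96.2 in Tconv. With 2 reads in Treg against 539 in Tconv its ratio was 348 (95% counting interval 95.8 to 2880). Eomes, a transcription factor of cytotoxic and memory cells, was at 18.5, 12.4, 12.8 and 14.2 in Treg and at 218, 157 and 134 in Tconv (log2 difference -3.45 ± 0.55, adjusted p = 0.00034). The chemokine Ccl5 averaged 63.0 ± 13.7 in Treg and 896 ± 338 in Tconv (-3.77 ± 0.57), and the receptor Cxcr6 26.0 ± 6.22 and 221 ± 53.2 (-3.04 ± 0.33). Of 14 listed markers of CD8 T and natural killer cells 8 met the rule. Of these 7 were lower in Treg and 0 higher, but Gzmk, Klrd1, Klrk1 and Klrb1c reached 10 in Tconv libraries only, so 4 of the 7 entered through the group where they were high. Klrd1 and Klrk1, killer-lectin receptors, had 2 and 3 reads in Treg, with ratios of 134 (36.7 to 1116) and 138 (46.8 to 673) in favour of Tconv. Prf1, perforin, fell by 2.09 ± 0.25 and Klrb1c (NK1.1) differed by -3.59 ± 0.68. Zbtb16, a transcription factor of invariant T cells, had 0 reads in Treg and 142 in Tconv, and was at least 61.1-fold higher in Tconv (bound of 3 reads over the group). It too entered through the Tconv libraries only. The summed level of the list was 211 to 270 in Treg libraries and 997 to 1217 in Tconv libraries. The defining CD8 gene Cd8a had 6 reads in Treg and 4 in Tconv, and Ncr1 of natural killer cells had 0 and 1. Cd8b1, the listed member that met the rule and did not pass, had 350 reads in Treg and 269 in Tconv (log2 difference 0.05 ± 0.22). The part of other cells, or of cytotoxic CD4 T cells, in these differences was not tested beyond these levels.

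Of 16 listed B cell markers 14 had values, and 3 of these met the rule. Cd74, the invariant chain of MHC class II, was at 426, 546, 522 and 629 in Treg and at 30.7, 36.4 and 38.5 in Tconv (log2 difference 3.87 ± 0.33, adjusted p = 8.7e-07). Cd79b, a chain of the B cell receptor, was at 78.8, 77.9, 72.1 and 84.2 in Treg and at 8.13, 3.16 and 3.44 in Tconv (3.84 ± 0.34, adjusted p = 1.1e-06). Both genes were higher in every Treg library, and Cd79b reached 10 in Treg libraries only and so entered through them. Cd22 was lower on average in Treg (94.9 ± 22.5 against 157 ± 28.0) and did not pass. Ms4a1 had 7 reads in all 4 Treg libraries and 1 in Tconv, Cd79a 35 and 20, and Pax5 1 and 4. The listed MHC class II genes H2-Eb1, H2-Aa and H2-Ab1 had 54, 46 and 34 reads in Treg and 3, 9 and 10 in Tconv. The summed level of the list was 601 to 910 in Treg libraries and 173 to 227 in Tconv libraries, with 7 of 14 markers below 10 in every Treg library and 12 in every Tconv library. Cd74 made up most of the sum in Treg. Treg WT replicate 4 had the highest H2-Aa (18.6), Cd79a (13.3) and Csf1r (18.6), against at most 8.14, 6.21 and 2.74 in the other Treg libraries. Its Cd79b (84.2) stood close to the other Treg libraries. Of the myeloid markers 3 of 16 met the rule and Itgam fell by 2.64 ± 0.53, with summed levels of 243 to 268 in Treg and 193 to 226 in Tconv. Itgam reached 10 in Tconv libraries only and so entered through them.

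**Figure D3:**
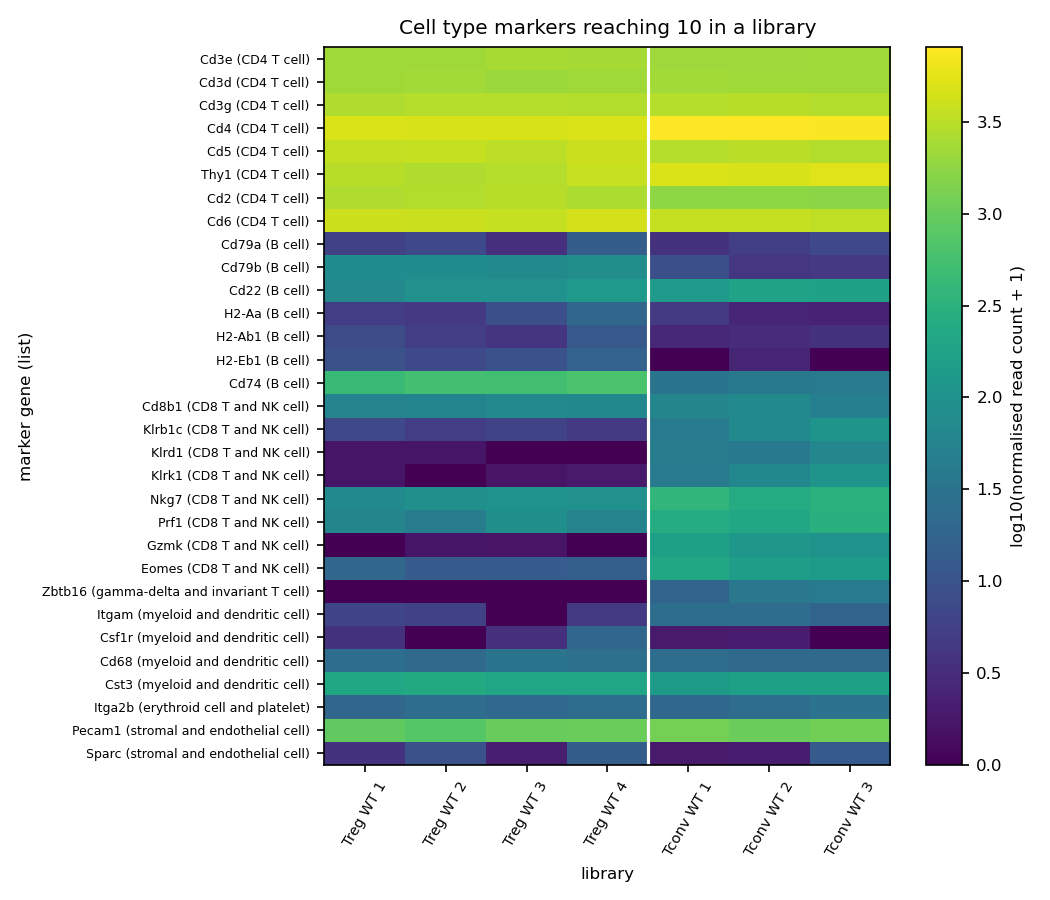
Levels of the cell type markers that reached 10 in at least 1 control library, as log10(normalised read count + 1), with libraries as columns and marker genes as rows. The CD4 T cell markers are bright in all 7 columns, Cd74 and Cd79b are brighter in Treg, and the killer-lectin genes, Gzmk, Eomes and Zbtb16 are brighter in Tconv.

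Among 37 listed genes of the Treg signature, 32 were higher, 2 lower and 3 did not pass. Of the 37, 91.9% passed, beside 18.3% of all genes. Those that reached 10 in Treg libraries only numbered 4, and they entered through the Treg libraries. The median log2 difference was 2.69, beside -0.02 over all genes. Ikzf4 (Eos), a zinc finger factor that works with Foxp3, was at 1218, 1217, 1162 and 1115 in Treg and at 50.6, 62.2 and 48.1 in Tconv (4.44 ± 0.26, adjusted p = 1.6e-08). Swap70, a regulator of the actin skeleton, rose by 3.86 ± 0.15 and Gpr83, a G protein-coupled receptor, by 3.80 ± 0.22. The 2 genes that went the other way, chosen after their values were seen, were the calcium-binding proteins S100a6 and S100a4. S100a6 averaged 169 ± 15.3 in Treg and 342 ± 22.02 in Tconv (-1.02 ± 0.26, adjusted p = 0.011), and S100a4 198 ± 6.00 and 339 ± 27.3 (-0.77 ± 0.24, adjusted p = 0.039, not passed in 9 of the 28 settings). Il10, Gzmb and Icos did not pass, with log2 differences of 1.13, 0.62 and 0.48.

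Genes of naive and resting T cells went the other way: of 25 measured, 16 were lower, 0 higher and 9 did not pass (median -1.01). With the 7 control libraries alone 22 of the 25 passed, 21 of them lower, where 35.7% of all genes passed. Tcf7, the transcription factor TCF-1 that maintains resting T cells, was at 4047, 3711, 4457 and 4403 in Treg and at 9891, 10038 and 10651 in Tconv (-1.30 ± 0.09, adjusted p = 1.3e-07). Lef1, its relative, averaged 986 ± 110 against 2517 ± 158 (-1.36 ± 0.20, adjusted p = 0.00018). Both remained well expressed in Treg, unlike Pde3b and Dapl1 of the same list. Tgfbr3 fell by 2.16 ± 0.21 and Tdrp by 2.49 ± 0.38. Foxo1, a factor of quiescence, differed by 0.11 and did not pass.

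**Figure D4:**
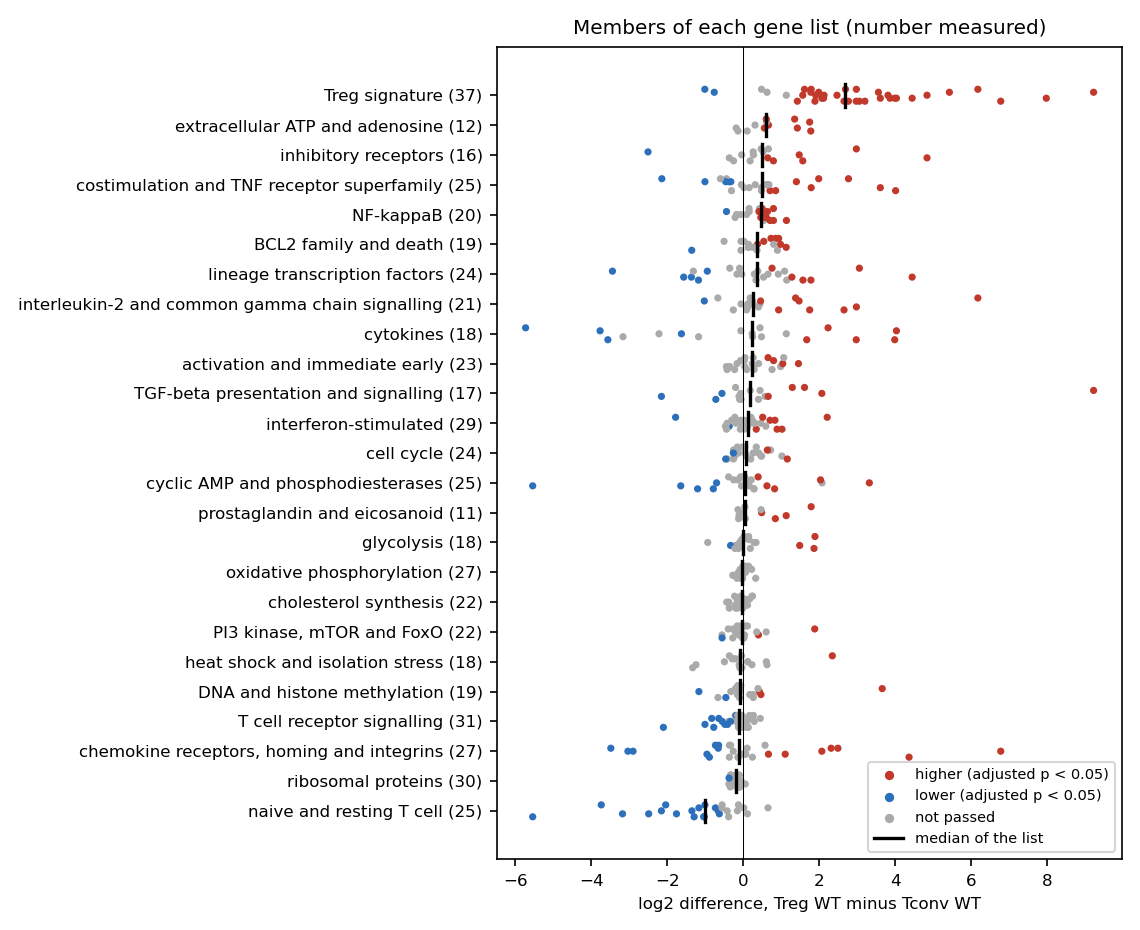
Log2 difference, Treg WT minus Tconv WT, of each measured member of 25 gene lists, with the number of members after each name; red members were higher, blue lower and grey did not pass, and black bars are medians. The Treg signature (median 2.69) lies to the right and the naive and resting genes (median -1.01) to the left, while the members of oxidative phosphorylation, cholesterol synthesis and ribosomal proteins lie between -0.44 and 0.32.

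Receptors and targets of interleukin-2 differed in parts of the pathway. Of 21 measured genes 8 were higher, 1 lower and 12 did not pass (median 0.25). Il2rb, the beta chain shared with interleukin-15, was at 8261, 7705, 7467 and 6326 in Treg and at 2145, 2144 and 2352 in Tconv (1.74 ± 0.22, adjusted p = 4.6e-05). Il2rg, the common gamma chain, differed by 0.11 and did not pass. The feedback inhibitors Cish (2.97 ± 0.18) and Socs2 (2.65 ± 0.31) and the kinase Pim1 (1.46 ± 0.16), all induced through STAT5, were higher. Cish was at 1671, 1651, 1388 and 1576 in Treg and at 224, 186 and 189 in Tconv.

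Receptors that restrain or costimulate T cells were changed in both directions. Of 16 inhibitory receptors 6 were higher, 1 lower and 9 did not pass (median 0.49). Those that reached 10 in Treg libraries only, and so entered through them, numbered 2. Ctla4, which takes CD80 and CD86 from antigen-presenting cells, was at 2137, 2355, 2481 and 2375 in Treg and at 266, 285 and 345 in Tconv (2.97 ± 0.31, adjusted p = 5.1e-06). Cd101 rose by 1.47 ± 0.26, Cd200r1 by 0.79 ± 0.15 and Cd274 (PD-L1) by 0.64 ± 0.13, whereas the collagen receptor Lair1 fell by 2.51 ± 0.26. Pdcd1 (PD-1) differed by 0.47, Lag3 by -0.05 and Havcr2 (TIM-3) by 0.18, none of which passed. Of 25 costimulatory and TNF receptor genes 9 were higher, 5 lower and 11 did not pass (median 0.48). Tnfrsf4 (OX40) averaged 1159 ± 60.9 in Treg and 170 ± 9.38 in Tconv (2.76 ± 0.34), Tnfrsf9 (4-1BB) 901 ± 96.6 and 73.1 ± 5.52 (3.60 ± 0.35), and Tnfrsf18 (GITR) 1189 ± 46.1 and 301 ± 18.3 (1.98 ± 0.17). Tnfrsf8 (CD30) was low in both and was at 46.6, 54.5, 40.7 and 68.3 in Treg and at 0.904, 3.16 and 3.44 in Tconv. It reached 10 in Treg libraries only and so entered through them. The ligand Cd40lg, by which helper cells activate B cells, was at 121, 141, 117 and 113 in Treg and at 536, 611 and 501 in Tconv (-2.15 ± 0.12, adjusted p = 1e-08). Tnfrsf4, Tnfrsf9, Tnfrsf18 and Tnfrsf8 were thus higher in every Treg library, and Cd40lg was lower in every one. The groups did not overlap for 41.3% of all genes. The receptors Tnfrsf26 and Tnfrsf14, named after their values were seen, passed as lower (-0.47 ± 0.09 and -0.33 ± 0.11).

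Among 24 lineage transcription factors 6 were higher, 5 lower and 13 did not pass (median 0.35). Ikzf2 (Helios) was at 6700, 6942, 7073 and 6329 in Treg and at 738, 870 and 840 in Tconv (3.05 ± 0.45, adjusted p = 0.00016). Another member of the family, Ikzf1 (Ikaros), was lower, at 2686 ± 143 against 5189 ± 132 (-0.95 ± 0.09, adjusted p = 2.1e-06), and Ikzf3 (Aiolos) differed by 0.33 and did not pass. Runx3, a factor of CD8 and type 1 helper cells, averaged 404 ± 23.3 in Treg and 919 ± 6.38 in Tconv (-1.18 ± 0.12), and Id2 294 ± 52.0 and 870 ± 99.2 (-1.57 ± 0.24). Hopx, which encodes a small homeodomain protein, rose by 1.57 ± 0.23. The other 4 that passed are named after their values were seen. Tbx21 (T-bet), the factor of type 1 helper cells, averaged 62.4 ± 8.96 in Treg and 162 ± 19.1 in Tconv (-1.37 ± 0.28, adjusted p = 0.0022). Gata3, the factor of type 2 helper cells, averaged 855 ± 50.2 and 507 ± 39.6 (0.75 ± 0.18, adjusted p = 0.0084). The aryl hydrocarbon receptor Ahr rose by 1.78 ± 0.41 and Prdm1 (Blimp-1), a factor of differentiated lymphocytes, by 1.27 ± 0.34. Bcl6, the factor of follicular helper cells, and Rora did not pass, at -0.04 and 0.29.

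Homing receptors and cytokines split in both directions. Of 27 chemokine, homing and integrin genes 7 were higher, 8 lower and 12 did not pass (median -0.13). Ccr8 was at 112, 143, 127 and 132 in Treg and at 2.71, 10.54 and 4.81 in Tconv (4.36 ± 0.44, adjusted p = 4.1e-06). Ccr6, the receptor of Ccl20, rose by 2.49 ± 0.31 and Gpr15, a gut homing receptor, by 2.31 ± 0.39. Cx3cr1, a receptor of effector cells, was low in both, at 0, 0, 2.91 and 0.887 in Treg and at 14.5, 11.6 and 31.6 in Tconv (-3.49 ± 0.52). It reached 10 in Tconv libraries only and so entered through them. Of 18 cytokine genes 5 were higher, 4 lower and 9 did not pass (median 0.24). Of the 18, 5 reached 10 in Tconv libraries only, Il21 and Tgfb3 among them, and 2 in Treg libraries only. Those genes entered through the cell type in which they were higher. Ebi3, a subunit of interleukin-27 and interleukin-35, averaged 120 ± 18.3 in Treg and 6.74 ± 1.80 in Tconv (3.98 ± 0.58), and Penk, the precursor of enkephalin, 534 ± 105 and 31.7 ± 4.94 (4.03 ± 0.76). Lta (lymphotoxin alpha) rose by 1.67 ± 0.14. Tgfb3 was low, at 2.25 ± 0.685 in Treg and 37.9 ± 10.4 in Tconv (-3.57 ± 0.61), and Tgfb1 differed by 0.44 and did not pass.

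In the TGF-beta pathway Lrrc32, which holds latent TGF-beta, was far higher in Treg, while its receptors moved apart. Tgfbr1, the type I receptor kinase, was at 785, 850, 758 and 727 in Treg and at 344, 310 and 304 in Tconv (1.28 ± 0.17, adjusted p = 5.2e-05). Tgfbr2, the type II receptor, was at 1956, 1907, 1919 and 1910 in Treg and at 3209, 3296 and 3049 in Tconv (-0.73 ± 0.07, adjusted p = 2.8e-06). The Treg and Tconv ranges did not overlap for either receptor, as for 41.3% of all genes, and they lay in opposite order. Skil, an inhibitor of SMAD signalling, rose by 0.65 ± 0.13 and Smurf2, a ubiquitin ligase of the receptors, fell by 0.57 ± 0.09. Over 17 measured genes 5 were higher, 3 lower and 9 did not pass (median 0.18), and the signal carriers Smad2, Smad3 and Smad4 did not pass, at -0.08, 0.18 and -0.21. Among the 17, Lrrc32 reached 10 in Treg libraries only and so entered through them.

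Genes that handle extracellular ATP and adenosine were higher in 7 of 12 and lower in 0 of 12 cases (median 0.61). P2rx7, an ATP-gated channel, was at 2051, 2139, 1816 and 2228 in Treg and at 535, 747 and 575 in Tconv (1.74 ± 0.19, adjusted p = 9.3e-06). Nt5e (CD73), which makes adenosine, averaged 2434 ± 253 in Treg and 907 ± 57.0 in Tconv (1.42 ± 0.27, adjusted p = 0.0014). Entpd1 (CD39), which acts before it, averaged 312 ± 31.4 and 91.2 ± 15.1 (1.77 ± 0.47, adjusted p = 0.015) and did not pass without Tconv WT replicate 3 (adjusted p = 0.065). The adenosine receptor Adora2a averaged 440 ± 40.3 and 278 ± 22.4 (0.66 ± 0.21, adjusted p = 0.035) and did not pass in 6 of the 28 settings, each of which left out a control library.

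Prostaglandin E2 raises cyclic AMP in T cells through the receptors EP2 and EP4. Of 29 listed genes 27 had values and 11 met the rule, of which 4 were higher, 0 lower and 7 did not pass (median 0.05). Of the 11, 36.4% passed, beside 18.3% of all genes. The receptor Ptger2 (EP2) was at 568, 659, 490 and 596 in Treg and at 145, 177 and 180 in Tconv (1.78 ± 0.46, adjusted p = 0.012), and did not pass without Tconv WT replicate 1 (adjusted p = 0.056). Ptger4 (EP4) was at 707, 684, 723 and 614 in Treg and at 381, 388 and 370 in Tconv (0.84 ± 0.18, adjusted p = 0.0043). Every Treg library was above every Tconv library for both, and the groups did not overlap for 41.3% of all genes. Lta4h, an enzyme of leukotriene synthesis, rose by 0.48 ± 0.10. The prostaglandin D synthase gene Hpgds averaged 45.8 ± 12.2 in Treg and 21.4 ± 10.54 in Tconv (1.12 ± 0.37, adjusted p = 0.044) and did not pass in 9 of the 28 settings. Ptgir, the prostacyclin receptor, differed by 0.46 and Ptger1 by -0.14.

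Of 25 genes of cyclic AMP signalling 5 were higher, 5 lower and 15 did not pass (median 0.05). Among the 25, 1 reached 10 in Treg libraries only and so entered through them. Besides Pde3b, the phosphodiesterase Pde7a was lower, at 538 ± 65.5 against 1241 ± 121 (-1.21 ± 0.16, adjusted p = 6.5e-05). The adenylyl cyclases Adcy6 and Adcy7, which make cyclic AMP, fell by 1.65 ± 0.21 and 0.71 ± 0.07. Rgs1, a regulator of G protein signalling, was at 1249, 1373, 1552 and 1452 in Treg and at 154, 153 and 117 in Tconv (3.31 ± 0.48, adjusted p = 0.00015). Pde4b and Pde4d did not pass, at -0.26 and -0.39.

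The T cell receptor pathway had 0 of 31 genes higher, 10 lower and 21 that did not pass, with a median of -0.13. Of the 31, 32.3% passed, beside 18.3% of all genes. Themis, an adaptor of receptor signalling, was at 232, 252, 261 and 244 in Treg and at 1137, 1130 and 944 in Tconv (-2.11 ± 0.11, adjusted p = 4.8e-09). The receptor chain Cd247 fell by 0.65 ± 0.07, the adaptor Pag1 by 0.83 ± 0.14 and the phosphatase Ptpn6 by 0.56 ± 0.07. Zap70 and Lck did not pass, at -0.11 and -0.20.

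Genes of NF-kappaB signalling were higher in 11 of 20, lower in 1 and did not pass in 8 (median 0.47). Of the 20, 60% passed, beside 18.3% of all genes. Nfkbiz, a nuclear inhibitor protein of the family, was at 1038, 1016, 1017 and 1082 in Treg and at 465, 454 and 501 in Tconv (1.13 ± 0.09, adjusted p = 4.2e-07). Nfkb1, the p50 subunit, rose by 0.49 ± 0.08, and the inhibitors Nfkbia and Tnfaip3 by 0.61 ± 0.13 and 0.79 ± 0.18. Of 23 immediate early genes 4 were higher, 0 lower and 19 did not pass (median 0.23). The share that passed was 17.4%, beside 18.3% of all genes. With the 7 control libraries alone 14 of the 23 passed, 4 of them lower, where 35.7% of all genes passed. Dusp1 rose by 1.45 ± 0.15, Myc by 1.04 ± 0.19 and Nr4a1 by 0.79 ± 0.14, while Fos, Jun and Cd69 differed by -0.08, 0.02 and 0.03. Among 19 genes of survival and death 7 were higher, 1 lower and 11 did not pass (median 0.36). Bcl2 averaged 2852 ± 133 in Treg and 1509 ± 208 in Tconv (0.93 ± 0.17, adjusted p = 0.0013), Bcl2l1 rose by 0.98 ± 0.18 and the ligand Fasl fell by 1.36 ± 0.26. Of these the death receptor Fas rose by 0.85 ± 0.12.

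Metabolic lists differed in how many genes passed. Of 27 genes of oxidative phosphorylation 0 passed with limma, 2 had an unadjusted p under 0.05, and edgeR and DESeq2 called 1 and 2. Of 22 genes of cholesterol synthesis 0 passed with limma, 2 had an unadjusted p under 0.05, and both other tools called 0. The medians were -0.04 and -0.05. Of 30 ribosomal proteins 29 did not pass and 1 was lower. Their log2 difference was below 0 for 29 of 30 (median -0.19), against 53.2% of all genes, and 29 of 30 remained below 0 under each of the 13 settings other than those leaving out a single library. With the 7 control libraries alone 13 of the 30 passed, all lower, beside 35.7% of all genes. Of 18 genes of glycolysis 3 were higher and 1 lower (median -0.00), which is 22.2% beside the 18.3% of all genes, and the 3 that were higher differed by over 2-fold. The glucose transporter Slc2a3 was at 800, 902, 809 and 952 in Treg and at 283, 319 and 326 in Tconv (1.48 ± 0.13, adjusted p = 8e-07). Hexokinase 2 (Hk2) rose by 1.86 ± 0.36 and the lactate exporter Slc16a3 by 1.88 ± 0.40, whereas Ldha fell by 0.34 ± 0.07. Of 22 genes of the PI3 kinase and FoxO pathway 2 were higher and 1 lower (median -0.05), which is 13.6% beside the 18.3% of all genes. Among them Phlpp1, a phosphatase of AKT, was at 468 ± 79.0 against 126 ± 11.99 (1.88 ± 0.18). Of 24 cell cycle genes 2 were higher and 2 lower (median 0.06), which is 16.7% beside the same 18.3%, and Mki67 differed by 0.48 and did not pass. Among the 24, 2 reached 10 in Treg libraries only. The 18 heat shock and isolation stress genes had 1 higher, Hspb1 (2.34 ± 0.63, adjusted p = 0.017), and 0 lower (median -0.09), and Hspb1 did not pass in 4 of the 28 settings. Of the 18, 5.56% passed, beside 18.3% of all genes, and 1 reached 10 in Treg libraries only.

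Among 19 regulators of DNA and histone methylation and related chromatin factors 3 were higher, 2 lower and 14 did not pass (median -0.09). Of the 19, 26.3% passed, beside 18.3% of all genes. The histone deacetylase Hdac9 was at 91.1, 109, 93.1 and 82.4 in Treg and at 6.33, 8.96 and 4.81 in Tconv (3.65 ± 0.46, adjusted p = 4.1e-05). It reached 10 in Treg libraries only and so entered through them. The methyltransferases moved apart: Dnmt3a rose by 0.46 ± 0.08 and Dnmt1 fell by 0.46 ± 0.07. The organiser Satb1 averaged 1677 ± 250 in Treg and 3757 ± 227 in Tconv (-1.17 ± 0.32, adjusted p = 0.016) and did not pass without Tconv WT replicate 1 (0.053) or without Tconv WT replicate 3 (0.06). Tet1 and Ezh2 did not pass, at -0.67 and -0.16. For reference, Actb averaged 26674 ± 1822 in Treg and 28710 ± 1868 in Tconv, Gapdh 2575 ± 185 and 2119 ± 165, and Ptprc (CD45) 13841 ± 337 and 15877 ± 462, none of which passed. Gapdh and Ptprc each passed under 3 of the 28 settings, among them the 7 control libraries alone (adjusted p = 0.0058 and 0.024). B2m, the light chain of MHC class I, averaged 17484 ± 776 and 14544 ± 476 (0.27 ± 0.09, adjusted p = 0.048) and did not pass in 14 of the 28 settings.

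Interferon-stimulated genes had 7 of 29 higher, 2 lower and 20 that did not pass (median 0.11), and those that were higher with the smallest p were guanylate-binding proteins. Of the 29, 31.0% passed, beside 18.3% of all genes. Gbp3, which belongs to a family of interferon-induced GTPases, was at 1210, 1048, 1313 and 901 in Treg and at 246, 218 and 256 in Tconv (2.20 ± 0.20, adjusted p = 1.3e-06). Oas2, a sensor of double-stranded RNA, was lower, at 78.5 ± 12.5 against 271 ± 16.7 (-1.79 ± 0.22). Isg15, Irf7 and Ifit1 did not pass, at 0.20, -0.20 and -0.07.

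Genes that passed in the same direction lay side by side, with no other gene of the rule between them, in 59 runs of 3 or more genes, 38 of them higher and 21 lower in Treg. How many runs chance would give was not tested, and the runs described here were chosen after their values were seen. The longest held 13 genes on chromosome 14, from 3049285 to 7568566 (GRCm38), all but 1 of them predicted genes named Gm with a number. All 13 were higher in Treg, from Gm2897 (2.99 ± 0.52) to Gm3500 (6.02 ± 0.55). Whether reads were shared between these 13 was not tested, so they cannot be taken as 13 separate rises. On chromosome 3, from 142493978 to 142638008 (GRCm38), the 5 neighbours Gbp5, Gbp7, Gbp3, Gbp2b and Gbp2 were all higher in Treg, with log2 differences from 0.83 (Gbp2) to 4.82 (Gbp2b). These copies are alike in sequence, so reads could be split between them. On chromosome X, from 7371276 to 7595245, Usp27x (2.30 ± 0.33), Ppp1r3f (1.16 ± 0.24), Ppp1r3fos (3.98 ± 0.30) and Foxp3 were higher. Ppp1r3fos, annotated at 7573600 to 7581027 on the plus strand, overlaps the Foxp3 gene model and the end of Ppp1r3f, which ends at 7574283 on the minus strand. The library kit does not mark strand, and reads of these overlapping genes cannot be told apart there. Ppp1r3fos was at 160, 192, 171 and 207 in Treg and at 10.8, 14.2 and 7.56 in Tconv, so each Treg library again lay above each Tconv library.

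On chromosome 13 Naip5 and Naip6, sensors of bacterial flagellin, averaged 859 ± 90.5 and 546 ± 105 in Treg and 80.3 ± 4.96 and 45.7 ± 20.1 in Tconv (3.40 ± 0.47 and 3.61 ± 0.38), and they too are close copies. Among the falls, Lrrc75b (-4.29 ± 0.50), Ggt1 (-3.06 ± 0.53) and Ggt5 were neighbours on chromosome 10, between 75550123 and 75617200. Klrd1, Klrk1 and Klrc1 lay together on chromosome 6, between 129591782 and 129678973. Klrc1 had 1 read in Treg and 123 in Tconv, a ratio of 159 (95% counting interval 28.0 to 6322). The interleukin-1 decoy receptor Il1r2, in none of the runs and chosen after its values were seen, averaged 194 ± 20.6 in Treg and 10.6 ± 4.06 in Tconv (4.12 ± 0.80, adjusted p = 0.0018). Next to Cd274, Pdcd1lg2 (PD-L2) averaged 213 ± 26.8 and 46.2 ± 7.64 (2.18 ± 0.34).

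Motifs were searched on both strands in the 250 bases before the annotated starts of genes in RefSeq. The forkhead core TGTTTAC, the letters bound by proteins of the class of Foxp3, was found for 5.32% of genes over 2-fold higher in Treg (21 of 395 with a window), 2.21% of those over 2-fold lower (4 of 181), 2.48% of those that did not pass and 3.54% of all 27025 genes with a window. The RUNX core TGTGGTT was found for 3.80%, 7.18%, 3.87% and 5.08% in the same order. The TCF/LEF core CTTTGAA was found for 6.33%, 5.525%, 3.73% and 5.19%. These shares are descriptions, and no difference between them was tested. Of the 15 rises and 15 falls described above 24 had a window, and 3 held a motif: 2 a forkhead core and 1 a TCF/LEF core. They are shown 5′ to 3′ on the strand of the gene with the motif in capitals, the forkhead core as its reverse complement GTAAACA. Il1rl1 lies at chr1:40439487-40439543 (plus strand, motif starting 117 bases before the start), Dapl1 at chr2:59484464-59484520 (plus strand, 164 bases) and Gzmk at chr13:113181022-113181078 (minus strand, 88 bases).
Il1rl1: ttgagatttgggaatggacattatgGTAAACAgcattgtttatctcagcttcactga
Dapl1: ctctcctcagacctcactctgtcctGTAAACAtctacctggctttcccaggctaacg
Gzmk: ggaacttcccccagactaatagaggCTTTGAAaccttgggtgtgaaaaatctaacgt
The forkhead core thus stood before 1 gene that was higher in Treg and 1 that was lower, and a match of letters says nothing about binding.

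The 8 KO libraries, which share no sample with the control comparison although they share its estimate of spread, gave the same contrast once more. Treg KO against Tconv KO had 3439 genes that passed (31.5% of 10913). Over all 10913 genes 74.4% had the same sign in WT and KO. Of the 549 genes over 2-fold higher in Treg WT, 549 had the same sign in KO and 500 (91.1%) also passed there. Of the 246 over 2-fold lower, 243 had the same sign and 227 (92.3%) passed. Over all calls, 913 of 1100 higher and 695 of 892 lower genes passed in the same direction, 1 and 2 passed in the opposite one, and the 1608 shared calls were 46.8% of the KO calls. Lrrc32 differed by 9.21 in WT and 7.79 in KO, Foxp3 by 7.97 and 6.75, Il2ra by 6.17 and 6.01, Pde3b by -5.55 and -4.66, and Tcf7 by -1.30 and -1.31. All 5 had the same direction, and the WT minus KO difference was 1.42 for Lrrc32, 1.22 for Foxp3 and -0.89 for Pde3b, none of which passed (limma, adjusted p = 0.7, 0.38 and 0.57). Adjacent sample numbers (1 Treg, 1 Tconv) deviated together more in KO than in WT, and with these pairs as a block 4117 genes passed in KO.

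The difference between control and KO was itself tested, and it passed for 16 of the 10913 genes (0.147%). For Tmsb10, thymosin beta 10, Treg and Tconv were close in WT (log2 difference -0.20) and far apart in KO (-1.87), a difference of 1.67 ± 0.21 (adjusted p = 0.0068). It was at 2299, 2164, 2695 and 2580 in Treg WT and at 2846, 2694 and 2805 in Tconv WT. Sptssa, a subunit of serine palmitoyltransferase, differed by 0.19 in WT and -0.67 in KO, Rps19 by -0.20 and -1.79, and the ATP synthase subunits Atp5e and Atp5l by -0.08 and -1.32 and by -0.05 and -1.28. Hirip3 was lower in Treg WT (-0.44) and higher in Treg KO (0.44). Among the other genes, named after their values were seen, Pros1, which encodes protein S, was the one with a difference over 2-fold in WT (2.77 in WT and 1.69 in KO). The count fell from 16 to 2 without Tconv WT replicate 2, to 4 without Tconv WT replicate 1 or 3, without replicate 1, 2 or 4 of Treg WT, or without replicate 2 of Treg KO, and to 6 without Tconv KO replicate 3 or Treg KO replicate 1. With adjacent sample numbers as a block it was 13, of which 8 were among the 16. Sex, sample series and genotype cannot be told apart in this difference.

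**Figure D5:**
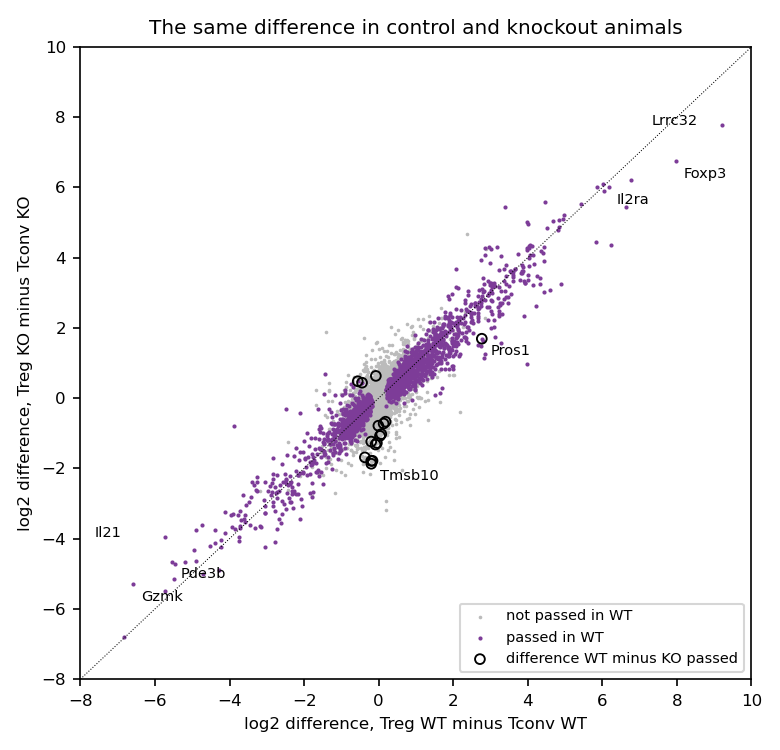
Log2 difference between Treg and Tconv in control animals (x axis) and in knockout animals (y axis) for the 10913 genes, with purple points for the 1992 genes that passed in WT and open circles for the 16 whose difference between WT and KO passed. Most purple points lie along the dotted line of equal differences, and most open circles lie below 0 on the y axis with values near 0 on the x axis.

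Calls were spread over levels, lengths and chromosomes. With genes ordered by mean level and cut into 5 bins of equal size, from the lowest bin up, 20.1%, 15.9%, 15.3%, 16.8% and 23.2% of genes passed. With 5 bins by transcript length the shares ran, from the shortest bin to the longest, from 13.98% to 23.8%. The log2 difference had a Pearson correlation of 0.02 with GC content and of 0.01 with transcript length across 10824 genes, which share the same libraries and are not independent replicates. By chromosome the share that passed ran from 11.98% on chromosome 8 to 22.5% on chromosome 3, leaving out the Y chromosome with 4 genes.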

How the data were processed

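RNA from sorted spleen cells lysed in Qiazol was made into libraries from 10 ng of total RNA with an Illumina TruSeq RNA kit, per the labels' protocols. TopHat and genome build mm10 are named per the submitters' processing notes. No source used here gives the version, the read counting or the annotation. Deposited values are a normalised signal, gene counts divided by the authors' size factor of each library. All values (100%) were whole multiples of 1 step per library within a tolerance of 0.001, so whole reads were recovered for count tests.

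Log2(value + 1) of the 11314 genes that reached 10 in 3 or more of the 15 libraries was fitted in limma 3.58.1 (R 4.3.3) with 4 group means and a trend on mean level. Tests were two-sided with Benjamini-Hochberg adjustment (0.05), and the 10913 genes of the rule are reported. The fit was tested on simulated data. Alternatives used edgeR 4.0.16 and DESeq2 1.42.0 on whole reads, other filters, pseudocounts, scalings and weights, the control libraries alone, and each library left out. Labels name no shared animals, so samples were treated as independent. Adjacent sample numbers (1 Treg, 1 Tconv) deviated together weakly in WT (r = 0.14, 0.21 and 0.02 across genes) and more in KO (0.48, 0.33, 0.21 and 0.54). The fit treats both as independent, and a block on these pairs was an alternative.

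The genes and 32 gene lists were chosen with earlier results of these data known. Named are Foxp3, Il2ra and Lrrc32, the 15 largest rises and falls among genes that passed without overlap and whose control mean was 50 or more (no predicted genes, pseudogenes or receptor gene segments), up to 6 members of a list with the smallest p, list members that did not pass, 6 genes of the WT and KO difference, and Actb, Gapdh, B2m, Ptprc and Cd4. Positions came from GENCODE release vM21 (17346 of 17594 symbols matched) and promoter sequences from RefSeq. Reads carry no molecular identifiers, so intervals cover counting error only. Some items are not reported here.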

Additional observations from a re-analysis of the deposited data

Results flagged for a closer look

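In 13 of 210 named genes 1 Treg WT library stood apart from the other 3 by a test for a single distant value, which chance flags in about 1 in 20 groups. Of these 6 were in replicate 3, 6 in replicate 4 and 1 in replicate 1. Replicate 3 was lowest for Lrrc32 (1987, others 2284 to 2308), Ryr2 (60.5, others 98.4 to 103) and Dusp5 (81.4, others 106 to 110). It was highest for Pde3b (41.3, others 28.4 to 30.3), Cd27 (2906, others 2726 to 2749) and Klrc1 (0.582, others 0). Replicate 4 was lowest for Pim1 (1403, others 1728 to 1780). It was highest for Ptgir (74.5, others 36.1 to 41.4), Adcy7 (3251, others 2939 to 2991), Sesn1 (1143, others 969 to 994), Rrm2 (79.8, others 29.7 to 36.6) and Birc5 (25.7, others 9.31 to 11.035). Replicate 1 was highest for Lrrc75b (8.22, others 3.45 to 4.07).

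A test of whether the difference between Treg and Tconv was the same in control and KO animals passed for 16 genes. The 6 given here were named for the smallest p among them, so their passing follows from that choice. Sex, sample series and genotype cannot be told apart in this difference. The WT minus KO difference of log2 values was 1.67 for Tmsb10, 0.86 for Sptssa, 1.24 for Atp5e, 1.59 for Rps19, -0.89 for Hirip3 and 1.23 for Atp5l.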

How the results depend on the processing

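Against 1992 genes that passed (1100 higher, 892 lower in Treg), the control libraries alone gave 3900 (1997 and 1903) and library weights 4191 (2120 and 2071). The other settings that kept all libraries gave 1582 (a mean of at least 50) to 2534 (DESeq2), and edgeR gave 2252. Leaving out each library gave 1374 to 2466 genes in all, 797 to 1286 higher and 577 to 1180 lower. The lowest counts came without Tconv WT replicate 1. The 16 genes with a difference between WT and KO became 88 with DESeq2, 55 with library weights and 35 with the GC trend removed. They became 2 to 22 when each library was left out. The cause was not tested. The labels pair no samples. Adjacent sample numbers as a block gave 2267 genes, 1808 of them among the 1992. Of 214 named genes 164 passed, 149 of these under all 28 settings, and none changed direction where it passed. Of the other 50 named genes 33 passed under at least 1 setting, 29 of them with the 7 control libraries alone. Depth of 6.43 to 11.1 M reads leaves genes under 10 outside the rule.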
